A study of Mus musculus with 14 samples.

Results

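Control cells were compared between day 0 and day 3 in MC3T3-E1, a mouse line of osteoblast precursors that can be led to lay down a mineralising matrix. The comparison covered every gene with at least 10 counts in at least 2 of the 4 control libraries of these days, 11974 of the 24346 genes in the deposited count table. The whole series holds 14 libraries of polyadenylated RNA from this line. Control cells and cells labelled as a knockdown of MACF1, a linker of actin and microtubules, were each taken at days 0, 3 and 5 (2 libraries) and at day 10 (1 library). The labels give the control genotype as control and mark its libraries NC. They mark the other libraries sh, and give no sequence, vector or clone for either. No source used here names the event from which the days are counted, the medium, or any agent added. The series' design text calls the libraries of a group biological replicates, and no source says that cultures were grown separately. Each p-value therefore measures only how these libraries spread, and that spread may be technical.

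Osteoblasts form bone in steps. Runx2 and then Sp7 commit a precursor to the lineage, the committed cell secretes a collagen matrix, and it later makes the enzymes and acidic phosphoproteins with which mineral is laid into that matrix. Alkaline phosphatase and the phosphatase Phospho1 supply phosphate, bone sialoprotein binds hydroxyapatite, and parathyroid hormone acts through Pth1r. Wnt, BMP and IGF signals promote these steps, and proliferation as a rule falls as a culture matures. Genes of the late osteoblast and of growth are commonly used to read the state of such a culture.

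The 2 libraries of day 3 differed, and this bears on every value below. The day 0 libraries held 16228425 and 14166742 counts and those of day 3 held 15419979 and 8044687. Replicate 2 of day 3 had 19.7% of its counts on cytoplasmic ribosomal protein genes, against 8.49% to 9.66% in the other 3. Log2 CPM (counts scaled to library size, with trimmed-mean factors) correlated at 0.905 across genes in the day 3 pair and at 0.992 in the day 0 pair. The difference between the day 3 libraries followed exon length (Spearman's rho −0.428 across genes, which are not independent replicates) and GC content (0.415). The change from day 0 followed exon length at 0.0967 with replicate 1 and at −0.356 with replicate 2. In the decile of shortest genes the median change was −0.06 on the log2 scale with replicate 1 and 1.05 with replicate 2, and in that of the longest it was 0.09 and −0.58. What set this library apart was not tested. Some markers of other cell types, but not all, had 0 counts in all 4 libraries. Among these were Adgre1 and Laptm5 of macrophages, Cdh5 and Kdr of endothelium, Krt8 and Krt18 of epithelium, Ckm of muscle and Rbfox3 of neurons. Genes at 0 numbered 5 of 14 for macrophages and blood, 2 of 9 for endothelium and 2 of 7 for epithelium. They numbered 1 of 8 for muscle and 2 of 9 for neurons and glia. In the same order, 2, 2, 1, 1 and 4 genes had enough counts to be tested. The summed marker levels were 5.28 to 8.75 CPM at day 0 and 4.16 to 12.2 CPM at day 3 for 14 macrophage and blood genes, and 55.1 to 61.4 and 34.6 to 50.3 CPM for 9 endothelial genes, of which Flt1 alone supplied 53.6 and 59.4 CPM on day 0 and 33.8 and 48.5 CPM on day 3. The sums were 1.64 to 1.94 and 0.715 to 1.49 CPM for 7 epithelial genes, 2.71 to 3.68 and 2.01 to 7.46 CPM for 8 muscle genes, and 38.7 to 48.8 and 37.2 to 83.1 CPM for 9 neural and glial genes. None of the 5 lists had a gene that rose or fell. Defining genes of the lineage were present, with Runx2 at 84.8 and 78.5 CPM and Col1a1 at 4126 and 4869.9 CPM at day 0.

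**Figure D1:**
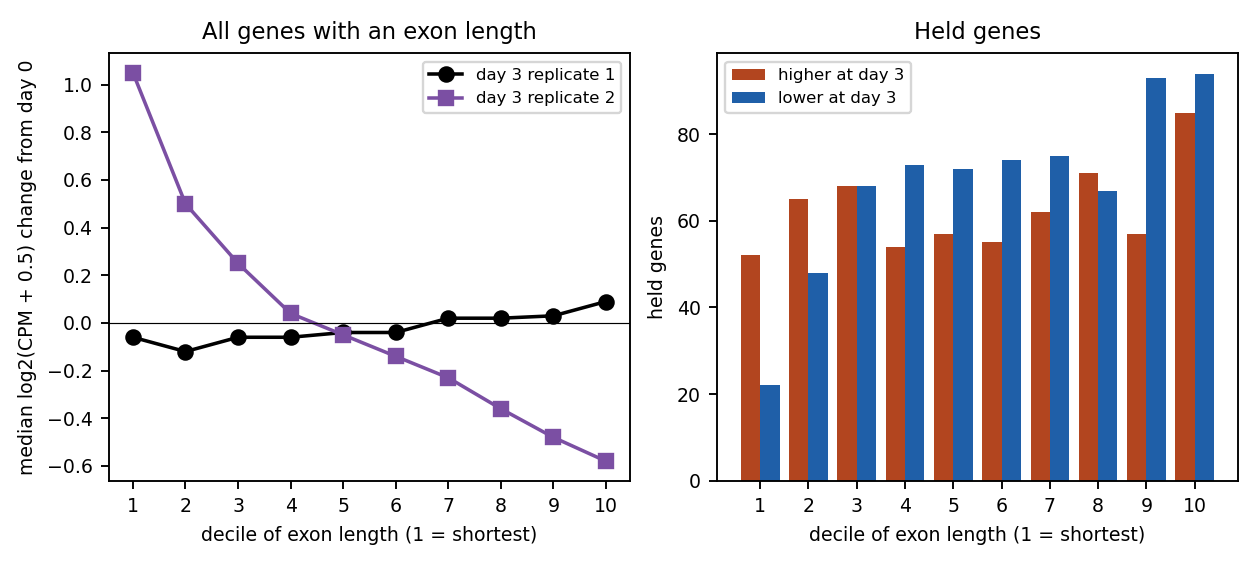
Left, the median of edgeR's log2 fold change from day 0 in deciles of genes ordered by exon length, fitted with each day 3 library alone. The axis label names log2(CPM + 0.5), but the values drawn are the fitted changes. Replicate 1 stays between −0.12 and 0.09 while replicate 2 runs from 1.05 in the shortest decile to −0.58 in the longest. Right, the number of genes in each decile that rose (red bars) or fell (blue bars) with each library; they occur in every decile, with 52 to 85 rises and 22 to 94 falls.

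A gene is therefore said to have risen or fallen only where edgeR's quasi-likelihood test gave an adjusted p (Benjamini-Hochberg over all 11974 genes) below 0.05 with the same sign 3 times: with both day 3 libraries together, with replicate 1 alone and with replicate 2 alone. By this rule 630 genes rose (5.26% of those tested) and 686 fell (5.73%), the shares against which the counts of each gene list are to be read. With both libraries together 744 were higher (6.21%) and 703 lower (5.87%), and 3833 had an unadjusted p under 0.05. With replicate 1 as the only day 3 library 1748 were higher (14.6%) and 1662 lower (13.9%), and with replicate 2 alone 3421 and 3718. The 2 libraries called 587 genes in opposite directions, and these are not counted as changed. A gene could enter by the count filter through the libraries of 1 day alone, and the counts of rises and falls include such genes. Padi2, Dlx3, Enpp2, Wnt4 and Ifitm5 entered through day 3 alone, and Ly6a through day 0 alone. The median change of the 630 rises was 1.20 on the log2 scale (0.93 with replicate 1, 1.37 with replicate 2), that of the 686 falls −1.13 (−0.96 and −1.32) and that of all genes tested 0.05. At least 2-fold changes in each library were seen for 234 of the rises and 262 of the falls. All 1316 had day 3 libraries outside the range of the day 0 libraries, as did 5789 of all genes tested. Their median exon lengths were 4670 bases for rises and 5102 for falls (4420 over all genes tested). Median GC content was 45.8% for rises and 51.5% for falls (49.4% over all genes tested), and no fit took GC into account. With gene length taken into the fit 1155 of the 1316 still passed. The length in such fits, called exon length below, is the ratio of deposited counts to length-scaled counts (RPKM). Genes without this ratio were not corrected. Coding genes made up 92.2% of the rises, 98.1% of the falls and 93.2% of all genes tested. All 14 libraries shared 1 estimate of the spread. Fitted on the 4 control libraries alone, edgeR called 0 genes with both day 3 libraries together (1227 at an unadjusted p under 0.05), and with 1 day 0 library the calls fell to 315 (129 rises and 186 falls, without replicate 1) or 202 (82 and 120, without replicate 2). For a named gene that lost its call in this way, the largest adjusted p of its 3 tests is given.

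**Figure D2:**
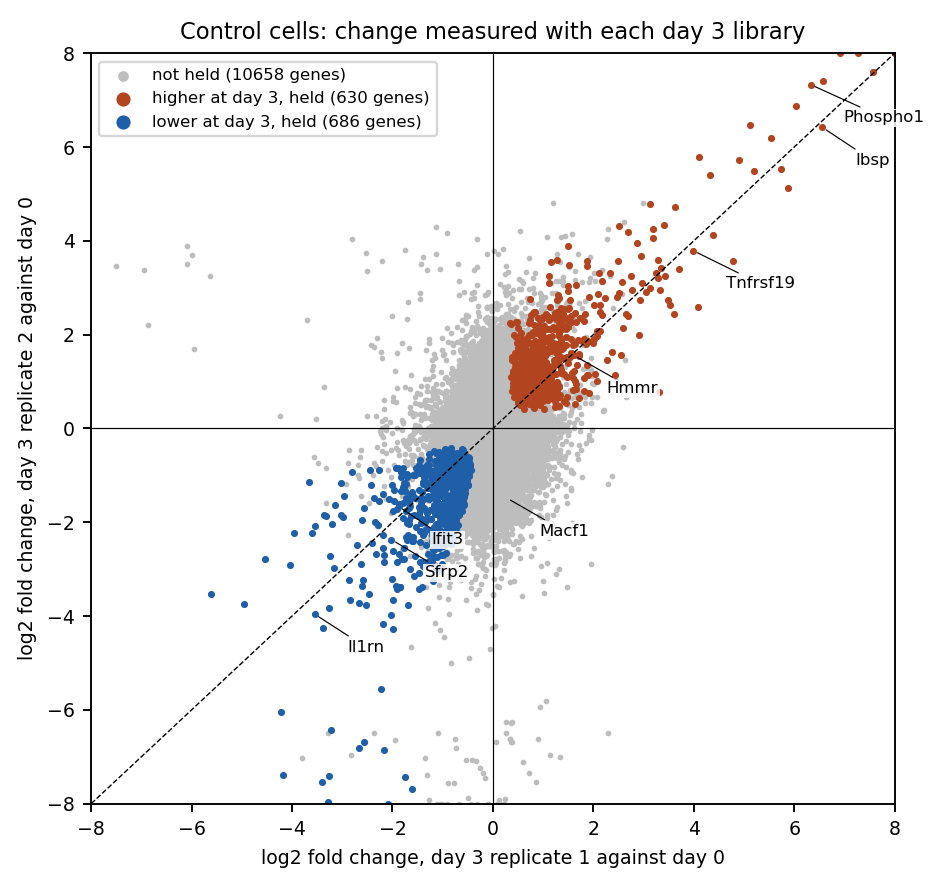
Each point is 1 gene, with its log2 fold change from day 0 measured with day 3 replicate 1 (horizontal axis) and with day 3 replicate 2 (vertical axis), both limited to 8 in either direction; the dashed line marks equal values. The 630 genes that rose (red) and the 686 that fell (blue) lie in the upper right and lower left, and Macf1 lies at 0.27 and −1.48 among the 10658 genes that did neither.

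Ibsp, Alpl, Phospho1 and Pth1r, genes of the mineralising osteoblast, rose steeply between day 0 and day 3, while most of their list did not pass. Of 19 measured matrix and mineral genes 7 rose, 1 fell and 11 did not pass, with a median log2 change of 0.22 (0.05 over all genes). The counts were 5 and 0 without day 0 replicate 1, and 6 and 0 without day 0 replicate 2. Ibsp (ENSMUSG00000029306.8, plus strand of chromosome 5, 104299171 to 104311469, GRCm38), which encodes bone sialoprotein, stood at 14.6 and 9.93 CPM at day 0, then 1175 and 1055 CPM at day 3 (log2 fold change 6.50, SE 0.35, adjusted p = 2.97e-05). Both day 3 libraries lay far above both day 0 libraries, and the change was nearly equal with each day 3 library, at 6.56 with replicate 1 and 6.42 with replicate 2. Alpl (ENSMUSG00000028766.8, minus strand of chromosome 4, 137741733 to 137796384, GRCm38), the alkaline phosphatase of bone, was at 2.83 and 2.57 CPM at day 0, then 101 and 122 CPM at day 3 (log2 fold change 5.36, SE 0.20, adjusted p = 2.41e-06). Phospho1 (ENSMUSG00000050860.6, plus strand of chromosome 11, 95824499 to 95832140, GRCm38), which frees phosphate inside matrix vesicles, went from 0.693 and 0.972 CPM, or 11 and 14 counts, to 67.7 and 134 CPM (log2 fold change 6.91, SE 0.39, adjusted p = 3.52e-05). Pth1r, the parathyroid hormone receptor, had 3.65 and 2.5 CPM at day 0, then 109 and 277 CPM at day 3 (log2 fold change 5.96, SE 0.47, adjusted p = 0.000207). Phospho1 and Pth1r were both higher in replicate 2 of day 3 than in replicate 1, and in neither did the days overlap. In RNA from whole cultures, more cells of a type and more RNA per cell cannot be told apart, here or in any result below. Omd, a keratan sulphate proteoglycan of bone, rose from 8.5 and 6.6 to 57.9 and 50.1 CPM. Ifitm5, an osteoblast membrane protein, rose from 0.315 and 0.625 to 1.36 and 3.13 CPM, and the glycoprotein tenascin C (Tnc) rose as well. Tnc lost its call without day 0 replicate 1 (adjusted p = 0.0598). Ifitm5 lost it whichever day 0 library was left out (adjusted p = 0.171 without replicate 1, 0.0925 without replicate 2). Ifitm5 did not pass with no filter on low counts (adjusted p = 0.0613). Ifitm5 did not pass by DESeq2 (adjusted p = 0.127).

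Other members of the list fell or did not pass. Spp1, which encodes osteopontin, an acidic phosphoprotein of the matrix, fell from 1979 and 1751 CPM to 978 and 609 CPM (log2 fold change −1.23, SE 0.25, adjusted p = 0.0139). Spp1 lost its call whichever day 0 library was left out (adjusted p = 0.0914 without replicate 1, 0.0779 without replicate 2). Its level was 3949 and 3404 CPM at day 5 and 7398 CPM in the day 10 library. The chains of type I collagen, the main protein of bone, did not pass: Col1a1 had 4126 and 4869.9 CPM at day 0, then 4490.1 and 5676 CPM at day 3 (log2 fold change 0.18, adjusted p = 0.577). Col1a2 had 6125 and 6875 CPM at day 0, then 5799 and 5355 CPM at day 3 (−0.22, adjusted p = 0.445). Sparc, a collagen-binding protein of bone, had 2324 and 2544 CPM at day 0, then 2582 and 3074 CPM at day 3 (0.22, adjusted p = 0.432). Dmp1, which osteocytes secrete into their matrix, had 14.5 and 11.7 CPM at day 0, then 20.3 and 12.7 CPM at day 3 (0.35, adjusted p = 0.347), and 129 and 119.5 CPM at day 5. Osteocalcin, from Bglap, has near-identical neighbouring copies with which reads may be shared. It was too low to test, at 0.126 and 0 CPM at day 0, then 0.26 and 0.448 CPM at day 3 and 1.23 and 1.24 CPM at day 5.

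**Figure D3:**
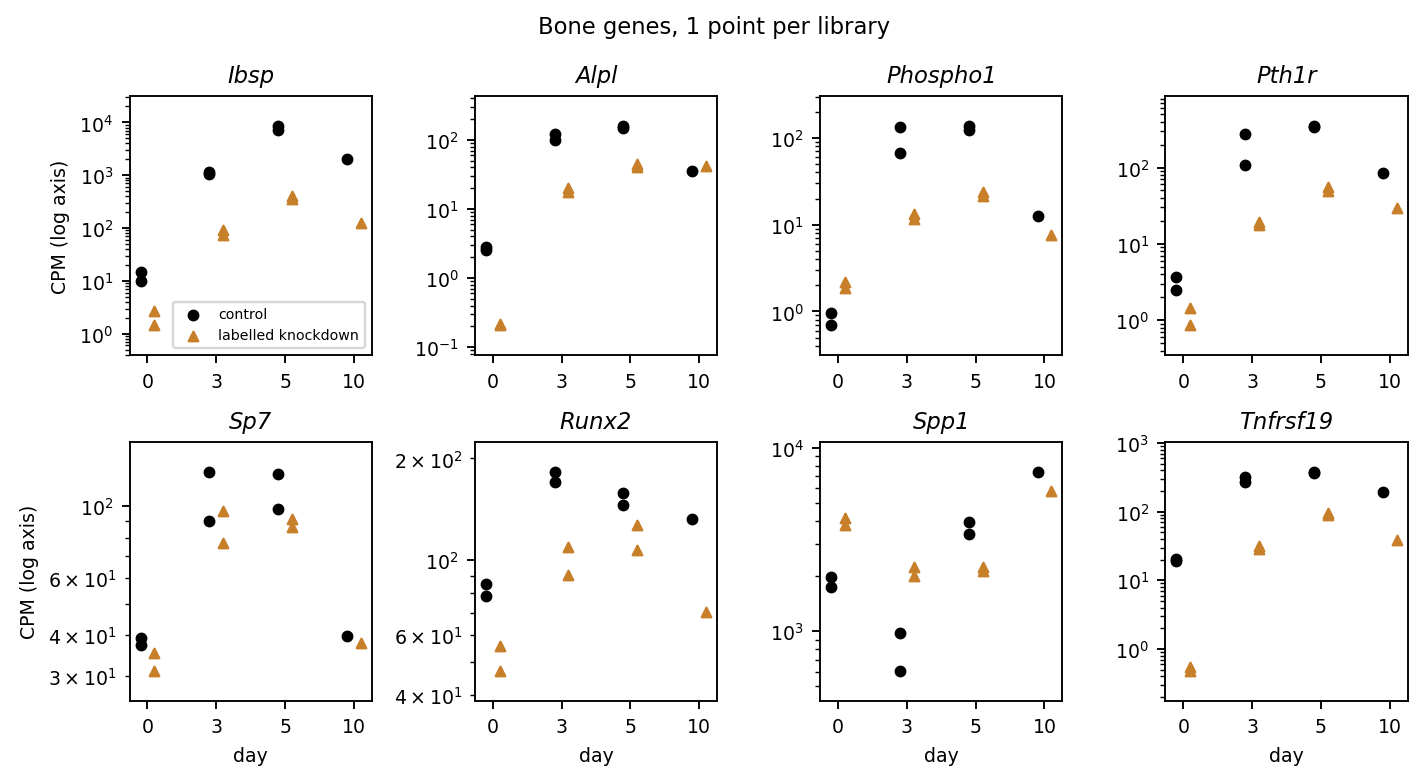
Levels in CPM (log axes) by day for 8 bone genes, 1 point per library; circles are control and triangles the libraries labelled knockdown. In control Ibsp goes from 9.93 and 14.6 CPM at day 0 to 1055 and 1175 CPM at day 3 and 7267 and 8428 CPM at day 5, while Spp1 is lowest at day 3.

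Genes of phosphate and calcium handling, a list that also holds Alpl and Phospho1, gave 5 rises and 1 fall among 14 (median −0.13), against 3 and 1 without day 0 replicate 1 and 2 and 1 without replicate 2. Atp2b1, a calcium pump of the cell membrane, stood at 139 and 142 CPM at day 0, then 223 and 311 CPM at day 3 (log2 fold change 0.93, SE 0.21, adjusted p = 0.0221). Enpp2, which makes lysophosphatidic acid, rose from a low level, at 0.315 and 0.208 CPM at day 0, then 2.73 and 2.09 CPM at day 3. Slc8a3, a sodium-calcium exchanger, did so too, at 0.693 and 0.694 CPM at day 0, then 12 and 4.18 CPM at day 3. Vdr, the vitamin D receptor, fell from 81 and 87.6 to 16.6 and 30 CPM (log2 fold change −1.87, SE 0.25, adjusted p = 0.0026). Enpp2 lost its call without day 0 replicate 2 (adjusted p = 0.0683). Atp2b1 and Slc8a3 lost their calls whichever day 0 library was left out (adjusted p = 0.124 and 0.0688 without replicate 1, 0.154 and 0.0804 without replicate 2). Panx3 (ENSMUSG00000011118.3, minus strand of chromosome 9, 37659902 to 37669235, GRCm38), a channel protein of osteoblasts and cartilage, stood at 2.14 and 0.417 CPM at day 0, then 78.1 and 46 CPM at day 3 (log2 fold change 5.57, SE 0.52, adjusted p = 0.000495), with 34 and 6 counts at day 0. Its level went on to 165 and 143 CPM at day 5.

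The transcription factors of the lineage moved both ways, 4 up and 4 down among 23 (median −0.01). Without day 0 replicate 1 the counts were 4 and 1, and without replicate 2 they were 2 and 1. Runx2 (ENSMUSG00000039153.14, minus strand of chromosome 17, 44495987 to 44814797, GRCm38), the factor that commits cells to the osteoblast fate, had 84.8 and 78.5 CPM at day 0, then 183 and 171 CPM at day 3 (log2 fold change 1.11, SE 0.18, adjusted p = 0.00584). Sp7 (ENSMUSG00000060284.6, minus strand of chromosome 15, 102356606 to 102367182, GRCm38), which acts downstream of it, had 39.2 and 37.4 CPM at day 0, then 90.3 and 128 CPM at day 3 (log2 fold change 1.51, SE 0.22, adjusted p = 0.00399). Mef2c, a factor of late osteoblasts and osteocytes, rose from 34.5 and 35.3 to 86.2 and 146 CPM (log2 fold change 1.73, SE 0.23, adjusted p = 0.00263). The day 3 libraries were close for Runx2, and replicate 2 was the higher for Sp7 and Mef2c. Dlx3, a homeobox factor of bone and teeth, had 0 counts in both day 0 libraries. That allows up to 0.189 and 0.208 CPM by counting error at 3 counts per library. At day 3 it had 1.17 and 2.24 CPM, the lower value being 5.62 times the higher of these limits. That ratio leaves out the counting error of the day 3 value, and Dlx3 entered by the count filter through day 3 alone. Cebpd, a factor of the early adipocyte programme, fell from 44.6 and 38.1 to 18.5 and 15.4 CPM. Runx1, a close relative of Runx2, fell from 67.8 and 84.4 to 38.8 and 30.1 CPM. Zfp521 (−0.97), which restrains Runx2, and Nfatc1 (−0.76) were the other 2 that fell. Cebpd lost its call without day 0 replicate 1 (adjusted p = 0.0648). Runx2, Sp7 and Runx1 lost their calls without day 0 replicate 2 (adjusted p = 0.0644 to 0.0786). Zfp521 and Nfatc1 lost their calls whichever day 0 library was left out (adjusted p = 0.0887 and 0.131 without replicate 1, 0.152 and 0.209 without replicate 2). Nfatc1 did not pass by limma on log2(RPKM + 1) (adjusted p = 0.0558). The homeobox factor Dlx5 had 60.7 and 57.8 CPM at day 0, then 70.7 and 72.5 CPM at day 3 and did not pass.

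Some large rises lay outside these lists. Egr1, an early growth response factor, had 8.69 and 7.57 CPM at day 0, then 64.6 and 70 CPM at day 3 (log2 fold change 3.05, SE 0.18, adjusted p = 4.13e-05). Pdgfa, a mitogen of mesenchymal cells, had 54 and 50.4 CPM at day 0, then 343 and 945 CPM at day 3 (log2 fold change 3.62, SE 0.40, adjusted p = 0.00108), with the higher value in replicate 2. Ramp1, a partner of the calcitonin receptor family, rose from 3.09 and 3.96 to 32.3 and 67.2 CPM (log2 fold change 3.81, SE 0.34, adjusted p = 0.000404). C1qtnf3, a secreted protein of the C1q family, rose from 1.32 and 2.15 to 21.4 and 9.4 CPM (log2 fold change 3.18, SE 0.41, adjusted p = 0.00244). Padi2, a protein-citrullinating enzyme, had 0 and 1 counts at day 0 and 180 and 153 at day 3, or 11.7 and 22.8 CPM, and entered by the count filter through day 3 alone. Smoc2, a matricellular calcium-binding protein, had 15 and 1 counts at day 0 (0.945 and 0.0694 CPM) and 172 and 62 at day 3 (11.2 and 9.25 CPM). H19, an imprinted non-coding RNA, had 12 and 3 counts (0.756 and 0.208 CPM) and then 418 and 157 (27.2 and 23.4 CPM), followed by 546 and 442 CPM at day 5 and 1287 CPM in the day 10 library. Each of these 7 kept its call whichever day 0 library was left out.

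Among targets of canonical Wnt signalling 5 of 21 rose and 2 fell (median 0.44), with 2 and 0 without day 0 replicate 1 and 3 and 0 without replicate 2. Tnfrsf19 (ENSMUSG00000060548.10, minus strand of chromosome 14, 60963875 to 61046490, GRCm38), a TNF family receptor, was at 19.1 and 20.3 CPM at day 0, then 317 and 273 CPM at day 3 (log2 fold change 3.90, SE 0.18, adjusted p = 6.27e-06). Rnf43, a ligase that clears Wnt receptors from the membrane, was at 0.63 and 1.39 CPM at day 0, then 9.81 and 9.25 CPM at day 3 (log2 fold change 3.25, SE 0.41, adjusted p = 0.00217). Both were alike in the 2 day 3 libraries. Tnfrsf11b, which encodes osteoprotegerin, the decoy receptor that restrains osteoclasts, had 13.4 and 12.2 CPM at day 0, then 128 and 21.9 CPM at day 3, a change of 3.31 with replicate 1 and 0.78 with replicate 2 (adjusted p = 0.0246). Its call ended with no filter on low counts (adjusted p = 0.0993) and by limma on log2(RPKM + 1) (0.107). Wif1, a secreted antagonist, rose, with 0.693 and 1.32 CPM at day 0, then 4.09 and 3.73 CPM at day 3. Wisp1, a matricellular protein, rose, with 18.6 and 17 CPM at day 0, then 35.6 and 38.2 CPM at day 3. Id2, an inhibitor of helix-loop-helix factors, had 65.8 and 57.4 CPM at day 0, then 31.4 and 23.6 CPM at day 3 and fell, as did Jag1, a Notch ligand, with 40.3 and 40.1 CPM at day 0, then 26.6 and 17.6 CPM at day 3. Lef1, a DNA-binding partner of beta-catenin, had 4.53 and 2.99 CPM at day 0, then 9.03 and 6.57 CPM at day 3 (log2 fold change 1.07, adjusted p = 0.0451 with both libraries). It passed with replicate 1 alone (adjusted p = 0.00809) but not with replicate 2 alone (0.061), and rose by the rule when exon length was taken into the fit. Axin2, a feedback inhibitor, had 8.12 and 10.8 CPM at day 0, then 16.5 and 7.61 CPM at day 3 (adjusted p = 0.425) and did not pass. Wif1 lost its call without day 0 replicate 1 (adjusted p = 0.0688). Tnfrsf11b, Wisp1, Id2 and Jag1 lost their calls whichever day 0 library was left out (adjusted p = 0.0766 to 0.167 without replicate 1, 0.0905 to 0.204 without replicate 2).

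Ligands, receptors and antagonists of the Wnt pathway divided, with 6 of 27 up and 5 down (median −0.31). Without day 0 replicate 1 the counts were 1 and 3, and without replicate 2 they were 2 and 3. Sfrp2 (ENSMUSG00000027996.11, plus strand of chromosome 3, 83766321 to 83774316, GRCm38), a secreted Frizzled-related protein, was the most abundant of them in CPM at day 0 and had 1263 and 1264 CPM at day 0, then 314 and 244 CPM at day 3 (log2 fold change −2.18, SE 0.18, adjusted p = 0.000242). Rspo2, an R-spondin that strengthens Wnt signals, had 77 and 76.2 CPM at day 0, then 10.7 and 6.12 CPM at day 3 (log2 fold change −3.15, SE 0.25, adjusted p = 0.000219). Dkk3, a secreted member of the Dickkopf family, had 534 and 543 CPM at day 0, then 193 and 149 CPM at day 3 (log2 fold change −1.65, SE 0.18, adjusted p = 0.000841). In each of these 3 the day 3 libraries were below the day 0 libraries by a wide margin. The receptor Fzd1 (−1.55) and the ligand Wnt9a (−1.13) also fell. Wnt6 had 3.21 and 3.33 CPM at day 0, then 10.4 and 27.2 CPM at day 3 (log2 fold change 2.49, SE 0.44, adjusted p = 0.00892). Wnt4 was low, at 0.126 and 0.486 CPM at day 0, then 1.75 and 6.12 CPM at day 3. Lrp4 (1.53), the binding protein Igfbp4 (1.23) and the receptor Fzd5 (0.74) were the others that rose besides Wif1. Fzd1, Wnt9a, Wnt6, Wnt4, Igfbp4 and Fzd5 lost their calls whichever day 0 library was left out (adjusted p = 0.0767 to 0.159 without replicate 1, 0.0791 to 0.147 without replicate 2). Wnt4 and Fzd5 did not pass by limma on log2(RPKM + 1) (adjusted p = 0.0643 and 0.0921). Fzd5 did not pass with no filter on low counts (adjusted p = 0.0894).

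Among genes of BMP and TGF-beta signalling falls outnumbered rises, with 11 of 37 lower and 2 higher (median −0.55). The counts were 3 and 1 whichever day 0 library was left out. Id1, Id2 and Id4, early targets of BMP, fell, with Id4 at 184 and 162 CPM at day 0, then 71 and 64.2 CPM at day 3 and Id1 at 25.4 and 24.9 CPM at day 0, then 4.68 and 13.7 CPM at day 3. For Id1 the change was −2.44 with replicate 1 and −0.88 with replicate 2, with an adjusted p of 0.0491 that rose to 0.059 with the replicate number as a block. The call of Id1 also ended with relative log expression scaling and with scaling without ribosomal protein genes. The signal carriers Smad9 (−1.52) and Smad3 (−0.91), the inhibitory Smad6 (−0.92), the ligands Bmp4 (−0.80), Tgfb2 (−0.69) and Tgfb3 (−0.55), and the binding protein Fstl1 (−1.19) fell as well. Bmper, a secreted modulator of BMP, rose from 1.2 and 1.46 to 15.4 and 8.21 CPM (log2 fold change 3.17, SE 0.39, adjusted p = 0.00196). Tgfb1 rose from 23.9 and 23.7 to 42.7 and 60 CPM. Id1, Smad9, Smad3, Smad6, Bmp4, Tgfb2, Tgfb3 and Tgfb1 lost their calls whichever day 0 library was left out (adjusted p = 0.0745 to 0.16 without replicate 1, 0.0892 to 0.224 without replicate 2). Tgfb2 and Tgfb3 did not pass with exon length in the fit (adjusted p = 0.495 and 0.0503). Tgfb3 did not pass with no filter on low counts (adjusted p = 0.11).

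Growth factor genes of the FGF and IGF families moved both ways, 4 up and 5 down among 23 (median −0.14). Without day 0 replicate 1 the counts were 2 and 2, and without replicate 2 they were 1 and 4. Igf2, the growth factor, was at 2.96 and 2.78 CPM at day 0, then 12.8 and 17.9 CPM at day 3 (log2 fold change 2.40, SE 0.22, adjusted p = 0.000364). Igfbp2, a carrier of IGF, was at 35 and 29.4 CPM at day 0, then 77.8 and 162 CPM at day 3 (log2 fold change 1.89, SE 0.30, adjusted p = 0.00617). Fgfr3, a receptor that acts in the skeleton, rose by the rule as well (1.35). Igf1, by contrast, had 145 and 136 CPM at day 0, then 45.2 and 52.5 CPM at day 3 (log2 fold change −1.53), and its receptor Igf1r had 25.9 and 29.2 CPM at day 0, then 13.4 and 16.7 CPM at day 3 (−0.88). Both fell, and the days did not overlap in either. Igfbp6 had 134 and 140.5 CPM at day 0, then 13.4 and 38.1 CPM at day 3, a change of −3.37 with replicate 1 and −1.85 with replicate 2 (adjusted p = 0.00551), and Pappa, a protease that frees IGF from its binding proteins, fell from 59.1 and 50.4 to 21.2 and 11.8 CPM (log2 fold change −1.71, SE 0.29, adjusted p = 0.0083). Pappa lost its call without day 0 replicate 1 (adjusted p = 0.0627). Igfbp2 lost its call without day 0 replicate 2 (adjusted p = 0.0848). Fgfr3 and Igf1r lost their calls whichever day 0 library was left out (adjusted p = 0.0652 and 0.0945 without replicate 1, 0.102 and 0.183 without replicate 2). Fgfr3 did not pass by limma on log2(RPKM + 1) (adjusted p = 0.0526). Igf1r did not pass with exon length in the fit (adjusted p = 0.254).

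Other matrix genes gave more falls than rises. Of 27 proteoglycans and other matrix proteins 11 fell and 3 rose (median −0.70), with 5 and 2 whichever day 0 library was left out. Tgfbi, an adhesive matrix protein, had 126 and 135 CPM at day 0, then 27 and 31.5 CPM at day 3 (log2 fold change −2.16, SE 0.16, adjusted p = 0.000207), and was back at 127 and 135 CPM at day 5. Fbn1, the main fibrillin of microfibrils, had 209 and 262 CPM at day 0, then 90.5 and 30.6 CPM at day 3. Fn1, fibronectin, had 3545 and 4312 CPM at day 0, then 2201 and 786 CPM at day 3. In both the lower value was that of replicate 2. Lum and Dcn, small leucine-rich proteoglycans that bind collagen fibrils, rose, with Lum at 31.2 and 28.3 CPM at day 0, then 162 and 65.5 CPM at day 3 and Dcn at 93.5 and 87.4 CPM at day 0, then 221 and 269.5 CPM at day 3. Of 25 collagen chains 7 fell and 2 rose (median −0.37; 1 and 2 without day 0 replicate 1, 2 and 1 without replicate 2). Col5a3 had 157 and 151 CPM at day 0, then 74.9 and 73.6 CPM at day 3 (log2 fold change −1.05, SE 0.15, adjusted p = 0.00342). Col6a1, a chain of the beaded filaments around cells, had 3571 and 3731 CPM at day 0, then 2337 and 1841 CPM at day 3 (log2 fold change −0.81, SE 0.19, adjusted p = 0.0249). Col8a1 had 53 and 43.8 CPM at day 0, then 88.7 and 95.8 CPM at day 3 (log2 fold change 0.93, SE 0.17, adjusted p = 0.0108). Col11a2 rose from 0.819 and 0.764 to 8.7 and 7.61 CPM. For Col5a3, Col8a1 and Col11a2 the day 3 libraries were close to each other. Col8a1 lost its call without day 0 replicate 2 (adjusted p = 0.125). Fbn1, Fn1, Lum and Col6a1 lost their calls whichever day 0 library was left out (adjusted p = 0.0648 to 0.126 without replicate 1, 0.0989 to 0.231 without replicate 2). Fn1 did not pass with the replicate block (adjusted p = 0.0566).

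Of 27 enzymes and chaperones of collagen 2 rose and 3 fell (median −0.08; 0 and 1, and 0 and 0, without day 0 replicate 1 or 2), among them P4ha3, a prolyl hydroxylase, with 162 and 196 CPM at day 0, then 85.9 and 52.1 CPM at day 3. Among 20 matrix proteases and inhibitors 2 rose and 5 fell (median −0.38; 1 and 1, and 0 and 1, without day 0 replicate 1 or 2). The gelatinase Mmp9 had 21.9 and 20.3 CPM at day 0, then 40.5 and 49.1 CPM at day 3 (log2 fold change 1.09, SE 0.17, adjusted p = 0.00497), and the collagenase Mmp13 had 4.6 and 5.28 CPM at day 0, then 17.5 and 8.51 CPM at day 3 (log2 fold change 1.43, SE 0.30, adjusted p = 0.0164), later 46.1 and 44.3 CPM at day 5 and 838 CPM in the day 10 library. The call of Mmp13 ended by limma on log2(RPKM + 1) (adjusted p = 0.0916). P4ha3 and Mmp9 lost their calls without day 0 replicate 2 (adjusted p = 0.0797 and 0.0711). Mmp13 lost it whichever day 0 library was left out (adjusted p = 0.117 without replicate 1, 0.113 without replicate 2). Of 10 genes of the osteocyte step 1 rose (Tnfrsf11b) and 3 fell (median −0.41; 0 and 2 whichever day 0 library was left out). Pdpn, a membrane protein of early osteocytes, had 96.7 and 112 CPM at day 0, then 40.1 and 46 CPM at day 3 (log2 fold change −1.28, SE 0.19, adjusted p = 0.00391). Ackr3, which takes up Cxcl12, had 10.5 and 11.5 CPM at day 0, then 2.79 and 1.79 CPM at day 3 (log2 fold change −2.20, SE 0.30, adjusted p = 0.00282).

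**Figure D4:**
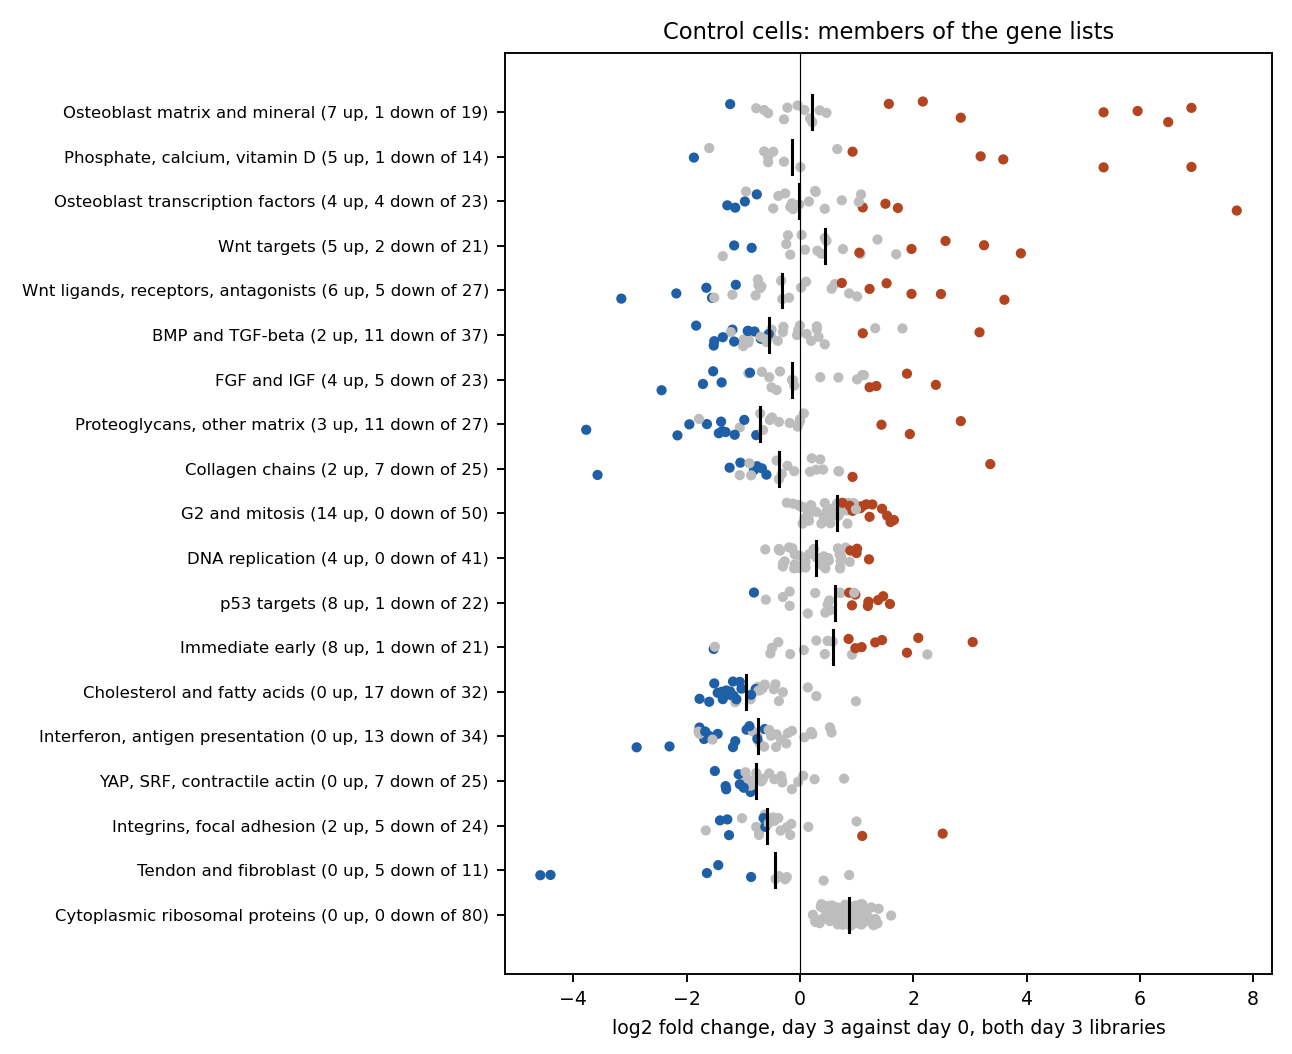
Each point is a member of a gene list, placed by its log2 fold change from day 0 to day 3 with both day 3 libraries; red points rose, blue points fell, grey points did neither, and the black line is the median. The row labels give the counts; the 80 ribosomal protein genes have a median of 0.87, and 0 of them rose.

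A group of genes of cell division rose by day 3. Of 50 genes of G2 and mitosis 14 rose and 0 fell (median 0.65, against 0.05 over all genes), and with replicate 1 as the only day 3 library 38 were called higher and 0 lower. The counts were 4 and 0 without day 0 replicate 1, and 3 and 0 without replicate 2. Hmmr (ENSMUSG00000020330.14, minus strand of chromosome 11, 40701395 to 40733422, GRCm38), a spindle protein that also binds hyaluronan, had 107 and 90.6 CPM at day 0, then 305 and 292 CPM at day 3 (log2 fold change 1.60, SE 0.19, adjusted p = 0.0013). Kif20b, a mitotic kinesin, had 102 and 87.5 CPM at day 0, then 353 and 244 CPM at day 3 (log2 fold change 1.66, SE 0.21, adjusted p = 0.00229). Cenpe, the kinesin of the kinetochore, had 179 and 162 CPM at day 0, then 552 and 437 CPM at day 3 (log2 fold change 1.54, SE 0.19, adjusted p = 0.00183). Cenpk, a protein of the inner kinetochore, rose from 16.2 and 13.5 to 46 and 34.9 CPM. Replicate 1 was the higher day 3 library for all 4, and replicate 2 also lay above both day 0 libraries. Mki67, the proliferation antigen, had 426 and 434 CPM at day 0, then 1031 and 613 CPM at day 3 (log2 fold change 0.93, SE 0.23, adjusted p = 0.0293), was 829.6 and 830.4 CPM at day 5 and 243 CPM in the day 10 library, and did not pass by limma on log2(RPKM + 1) (adjusted p = 0.189). Kif11, another mitotic kinesin, did not pass, with 329 and 80.6 CPM at day 3 against 118 and 112 CPM at day 0. Ccnd1, the cyclin of early G1, had 460.4 and 507 CPM at day 0, then 634 and 566 CPM at day 3 (0.31, adjusted p = 0.211). Of 41 genes of DNA replication 4 rose and 0 fell (median 0.29; 2 or 0 rose without day 0 replicate 1 or 2). Tyms, which makes thymidylate, had 55.7 and 42.8 CPM at day 0, then 84.9 and 112 CPM at day 3, and the primase subunit Prim1 had 54.7 and 44.4 CPM at day 0, then 85 and 99.5 CPM at day 3. Gins1, of the complex that opens the replication fork, also rose but did not pass with exon length in the fit (adjusted p = 0.333). Cenpk, Tyms and Prim1 lost their calls without day 0 replicate 2 (adjusted p = 0.089 to 0.154). Mki67 and Gins1 lost their calls whichever day 0 library was left out (adjusted p = 0.144 and 0.058 without replicate 1, 0.179 and 0.205 without replicate 2).

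The bases before the start of Hmmr are given because it was among the mitotic genes that kept their call whichever day 0 library was left out, and the CCAAT pentamer, bound by the factor NF-Y in many genes of mitosis, stands there 5 times, on either strand, in capitals. The sequence is from RefSeq (GRCm38.p6) and is limited to bases before the starts that both RefSeq and GENCODE give.
Hmmr (chr11:40733438-40733687, minus strand): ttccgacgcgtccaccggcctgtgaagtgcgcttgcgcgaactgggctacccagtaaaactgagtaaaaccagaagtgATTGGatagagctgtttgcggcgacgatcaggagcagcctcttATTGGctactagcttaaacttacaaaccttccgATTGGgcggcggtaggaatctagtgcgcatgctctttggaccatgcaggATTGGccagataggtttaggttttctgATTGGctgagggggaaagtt
The matches begin 172, 129, 96, 47 and 20 bases before the start and are all on the opposite strand, written ATTGG. In the 250 bases before RefSeq starts, 31 of 42 genes of mitosis with an entry held CCAAT, as did 10 of the 13 with an entry that rose, 37.5% of all 27025 genes with an entry and 41.1% of the 8776 of them that were tested. Both strands were searched, these motifs were kept after a wider set had been searched, none of them holds another, and a match describes the letters only.

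Targets of p53, the factor that halts the cycle after damage to DNA, gave more rises than falls. Of 22 p53 targets 8 rose and 1 fell (median 0.62), but none rose or fell once either day 0 library was left out. Cdkn1a, which encodes the kinase inhibitor p21, had 134 and 145 CPM at day 0, then 213 and 432 CPM at day 3 (log2 fold change 1.21, SE 0.28, adjusted p = 0.024). Bbc3, a promoter of apoptosis, had 21.7 and 22 CPM at day 0, then 42.9 and 71.2 CPM at day 3 (log2 fold change 1.38, SE 0.22, adjusted p = 0.00617). For both, replicate 2 of day 3 was the highest library. Bax, another such gene, had 50.4 and 45.5 CPM at day 0, then 61.8 and 227 CPM at day 3 and a change of 0.35 with replicate 1 and 2.24 with replicate 2. Its adjusted p of 0.0491 became 0.0643 with the replicate block, 0.0878 with no filter on low counts, 0.088 by limma on log2(RPKM + 1) and 0.111 by DESeq2. The call of Bax also ended with a filter of 10 counts in each of the 4 libraries. Of 24 genes of growth arrest 2 rose and 2 fell (median 0.09; 0 and 1 whichever day 0 library was left out). Gas1, a growth arrest protein of the membrane, had 372 and 419 CPM at day 0, then 117 and 57 CPM at day 3 (log2 fold change −2.18, SE 0.29, adjusted p = 0.0026). Cdkn1a, Bbc3 and Bax lost their calls whichever day 0 library was left out (adjusted p = 0.0597 to 0.175 without replicate 1, 0.0734 to 0.26 without replicate 2).

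Immediate early genes, which answer serum and stress within minutes, were higher in 8 of 21 cases and lower in 1 (median 0.58; 3 and 1, and 2 and 1, without day 0 replicate 1 or 2). Besides Egr1, Fos had 2.2 and 2.01 CPM at day 0, then 11.2 and 6.57 CPM at day 3 (log2 fold change 2.09, SE 0.32, adjusted p = 0.00483), Ier2 had 10.5 and 9.51 CPM at day 0, then 21.1 and 53.7 CPM at day 3. Klf4 had 26.8 and 21.4 CPM at day 0, then 62.8 and 69.1 CPM at day 3. Jun, the partner of Fos in AP-1, fell from 186 and 162 to 70.4 and 50.7 CPM (log2 fold change −1.52, SE 0.19, adjusted p = 0.00212). Fos lost its call without day 0 replicate 2 (adjusted p = 0.0653). Ier2 lost it whichever day 0 library was left out (adjusted p = 0.0868 without replicate 1, 0.127 without replicate 2).

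Of 32 genes of cholesterol and fatty acid synthesis 17 fell, 0 rose and 15 did not pass, with a median log2 change of −0.95 (−0.98 with replicate 1, −1.17 with replicate 2), and with replicate 1 as the only day 3 library 28 were called lower and 0 higher. Without day 0 replicate 1 or 2 the falls were 9 or 3. Hsd17b7 (ENSMUSG00000026675.10, minus strand of chromosome 1, 169949535 to 169969241, GRCm38), a reductase of the sterol pathway, had 71.8 and 71 CPM at day 0, then 31 and 10 CPM at day 3 (log2 fold change −1.77, SE 0.38, adjusted p = 0.0193). Acss2, which makes acetyl-CoA from acetate, had 45.4 and 56.7 CPM at day 0, then 22.6 and 10.4 CPM at day 3 (log2 fold change −1.60, SE 0.31, adjusted p = 0.0118), Acly, which makes it from citrate, had 387 and 429 CPM at day 0, then 210.2 and 87 CPM at day 3 (log2 fold change −1.45, SE 0.33, adjusted p = 0.0221), and the desaturase Scd1 had 290.1 and 301 CPM at day 0, then 135 and 71.8 CPM at day 3 (log2 fold change −1.51, SE 0.25, adjusted p = 0.00747). The fall was larger in replicate 2 for all 4. It was of like size in the 2 libraries for Msmo1, a sterol oxidase (299 and 280.3 and then 138 and 139 CPM), and for the desaturase Fads1 (299 and 354 and then 156 and 144 CPM). Srebf2, the factor that turns these genes on, had 149 and 171 CPM at day 0, then 80.9 and 61.2 CPM at day 3. Ebp, a sterol isomerase, differed most of the list between the day 3 libraries, at 79.1 and 247 CPM at day 3 against 84.6 and 78.7 CPM at day 0. Acss2, Scd1, Fads1 and Srebf2 lost their calls without day 0 replicate 2 (adjusted p = 0.0612 to 0.103). Hsd17b7 and Acly lost their calls whichever day 0 library was left out (adjusted p = 0.0898 and 0.0887 without replicate 1, 0.111 and 0.136 without replicate 2).

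Genes of the interferon response and antigen presentation also gave falls. Of 34 tested 13 fell and 0 rose (median −0.73; −1.03 with replicate 1, −0.55 with replicate 2), and with replicate 1 alone 27 were lower and 1 higher. Without day 0 replicate 1 or 2 the falls were 4 or 5. Ifit3 (ENSMUSG00000074896.3, plus strand of chromosome 19, 34583531 to 34588731, GRCm38), a protein that binds viral RNA, had 13.9 and 14.5 CPM at day 0, then 3.9 and 4.48 CPM at day 3 (log2 fold change −1.77, SE 0.31, adjusted p = 0.00872). Ifit1, of the same family and chromosome, had 23.9 and 16.7 CPM at day 0, then 5.91 and 6.72 CPM at day 3 (log2 fold change −1.69, SE 0.35, adjusted p = 0.0157). Oasl2, of the oligoadenylate synthetase family, had 10.6 and 13.9 CPM at day 0, then 2.14 and 0.895 CPM at day 3 (log2 fold change −2.88, SE 0.46, adjusted p = 0.00577). Dhx58, a sensor of RNA, had 7.62 and 9.79 CPM at day 0, then 1.43 and 2.24 CPM at day 3 (log2 fold change −2.30, SE 0.32, adjusted p = 0.00297). The 2 day 3 libraries were close to each other for Ifit1 and Ifit3. The factors that turn these genes on fell too, with Irf9 at 24.1 and 25.2 CPM at day 0, then 9.16 and 8.81 CPM at day 3, Stat2 at 63.7 and 65.4 CPM at day 0, then 23.6 and 33.6 CPM at day 3 and Irf7 at 4.09 and 4.17 CPM at day 0, then 1.17 and 1.64 CPM at day 3. Of the antigen-presenting molecules, H2-K1 had 65.4 and 67.8 CPM at day 0, then 32.7 and 39.5 CPM at day 3 and B2m had 449 and 387 CPM at day 0, then 283 and 259 CPM at day 3. Isg15, a ubiquitin-like product of the response, had 8.82 and 9.31 CPM at day 0, then 2.6 and 8.81 CPM at day 3 and did not pass, its replicate 2 value lying close to day 0. By day 10 the control library had 13.1 CPM of Ifit3 and 26.3 CPM of Ifit1, with no replicate. Ifit3 lost its call without day 0 replicate 2 (adjusted p = 0.0672). Ifit1, Stat2, Irf7, H2-K1 and B2m lost their calls whichever day 0 library was left out (adjusted p = 0.0511 to 0.185 without replicate 1, 0.0568 to 0.114 without replicate 2). Irf7 did not pass by DESeq2 (adjusted p = 0.0661). B2m did not pass with no filter on low counts (adjusted p = 0.087).

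**Figure D5:**
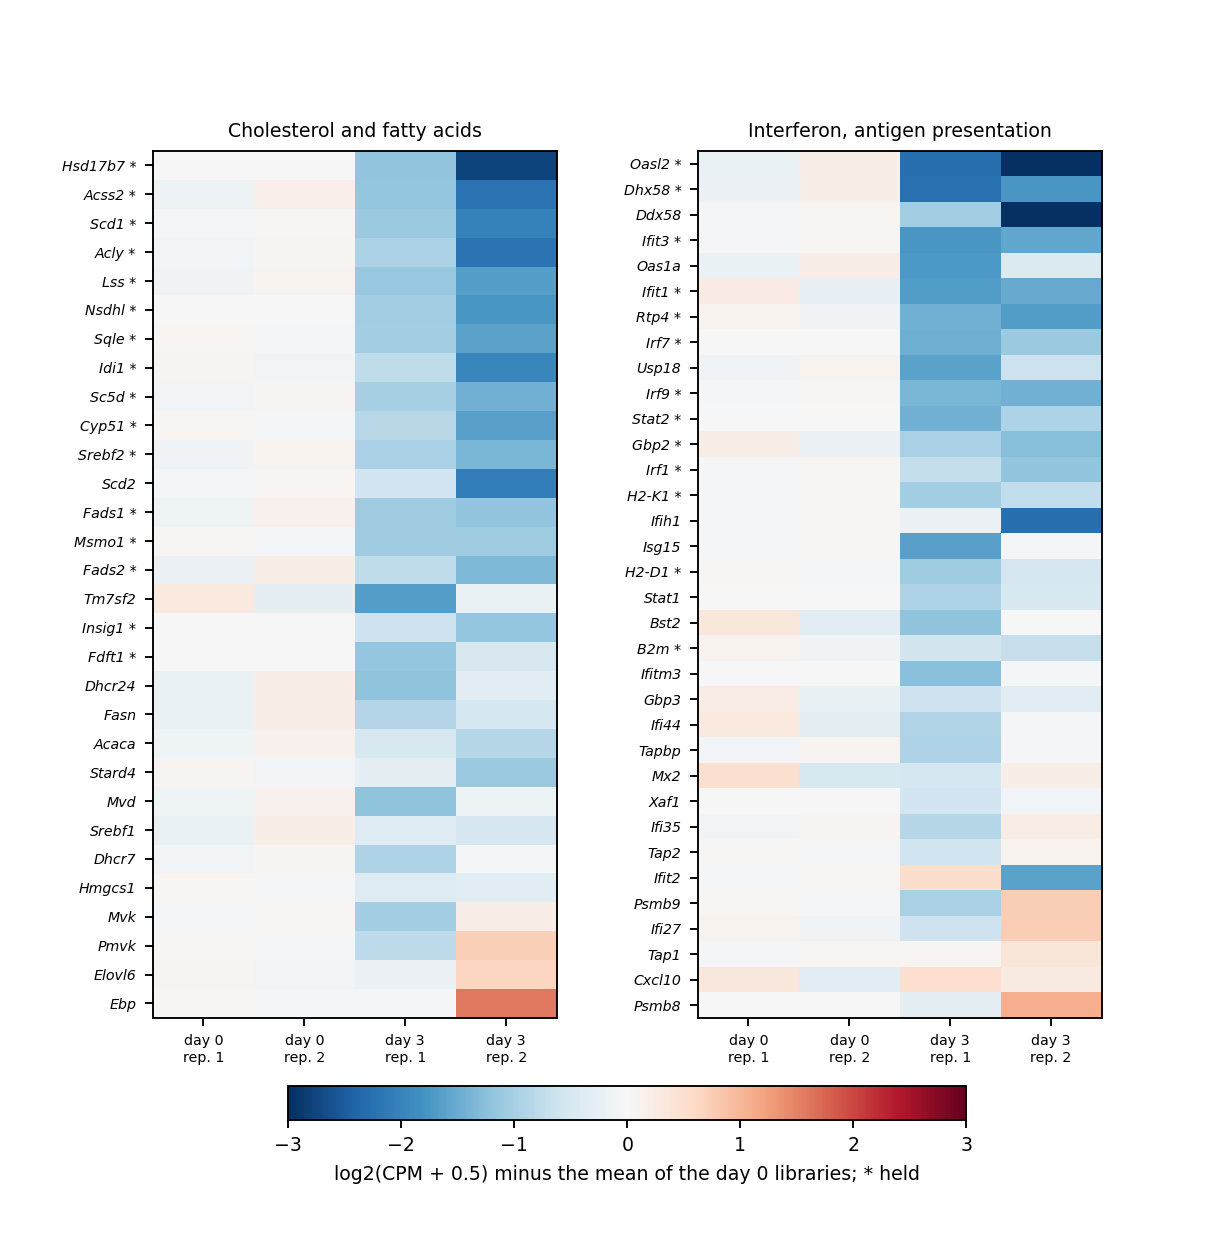
Log2(CPM + 0.5) of each gene minus its mean over the day 0 libraries, in the 4 control libraries, for 30 of the 32 genes of cholesterol and fatty acid synthesis (left) and 34 of the interferon response and antigen presentation (right), ordered by fold change. Colours are limited to −3 to 3, blue is lower at day 3 and red higher, and stars mark the 16 and 13 of those drawn that fell.

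The sequences before Ifit3 and Ifit1 and before Hsd17b7 show the letters that members of these lists share, again from RefSeq (GRCm38.p6) and limited as above. Capitals mark, in the Ifit genes, TTTC followed after 2 bases of any kind by TTTC again, the core of the element that interferon-activated factors bind, and CCAAT on either strand in Hsd17b7.
Ifit3 (chr19:34583279-34583528, plus strand): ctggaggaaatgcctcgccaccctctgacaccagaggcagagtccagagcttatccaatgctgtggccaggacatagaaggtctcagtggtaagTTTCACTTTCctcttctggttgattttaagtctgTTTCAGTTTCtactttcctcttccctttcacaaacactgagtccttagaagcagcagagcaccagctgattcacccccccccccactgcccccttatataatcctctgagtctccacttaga
Ifit1 (chr19:34640639-34640870, plus strand): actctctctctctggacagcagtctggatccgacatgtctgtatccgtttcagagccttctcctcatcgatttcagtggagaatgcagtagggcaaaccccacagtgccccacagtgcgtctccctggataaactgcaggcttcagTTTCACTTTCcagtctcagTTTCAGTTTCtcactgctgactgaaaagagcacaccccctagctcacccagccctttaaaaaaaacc
Hsd17b7 (chr1:169969242-169969455, minus strand): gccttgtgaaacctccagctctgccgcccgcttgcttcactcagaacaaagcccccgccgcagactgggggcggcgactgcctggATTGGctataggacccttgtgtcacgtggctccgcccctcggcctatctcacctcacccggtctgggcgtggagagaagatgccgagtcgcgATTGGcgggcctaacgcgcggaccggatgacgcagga
The matches begin 156 and 122 bases before the RefSeq start of Ifit3, 104 and 85 before that of Ifit1, and 165 and 73 before that of Hsd17b7. The repeated TTTC, on either strand, stood in the 250 bases of 10 of 27 interferon genes with an entry, of 5 of the 11 that fell (B2m, Gbp2, Ifit1, Ifit3 and Stat2), of 3.46% of all genes and of 3.05% of genes tested. CCAAT stood in 19 of 23 genes of cholesterol and fatty acid synthesis and in 10 of the 12 that fell. The octamer CACCCCAC, a form of the sterol element, stood in 1 of the 23 and in 0 of the 12, against 2.98% of all genes.

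Genes of the contractile cytoskeleton gave falls. Of 25 targets of YAP and SRF and genes of contractile actin 7 fell and 0 rose (median −0.77), and with replicate 1 alone 17 were lower and 0 higher; 2 or 0 fell without day 0 replicate 1 or 2. Myh9, the heavy chain of non-muscle myosin, had 2112 and 2094 CPM at day 0, then 1038 and 668 CPM at day 3 (log2 fold change −1.30, SE 0.23, adjusted p = 0.00877). Actn1, an actin cross-linker, had 397 and 484 CPM at day 0, then 213 and 203 CPM at day 3 (log2 fold change −1.08, SE 0.19, adjusted p = 0.0083). Amotl2, a target and partner of YAP, had 381 and 367 CPM at day 0, then 178 and 85.1 CPM at day 3. Ctgf, a matricellular protein, had 11.2 and 12.4 CPM at day 0, then 5.98 and 3.13 CPM at day 3. Replicate 2 was the lower day 3 library for Myh9, Amotl2 and Ctgf, while the day 3 pair was close for Actn1. With exon length in the fit 12 members fell and 1 rose. Acta2, smooth muscle actin, had 1086 and 1111 CPM at day 0, then 558 and 811 CPM at day 3 and did not pass. Integrins and focal adhesion proteins gave 5 falls and 2 rises of 24 (median −0.58; 1 and 1, and 0 and 1, without day 0 replicate 1 or 2), with the adaptor Pxn at 63.2 and 67.9 CPM at day 0, then 29 and 26 CPM at day 3 and the integrin Itga10 at 2.08 and 2.85 CPM at day 0, then 11.6 and 17 CPM at day 3 (log2 fold change 2.52, SE 0.25, adjusted p = 0.000548). Of 15 genes of cell contacts 3 fell and 1, Panx3, rose (median −0.29; 0 and 1 whichever day 0 library was left out). Cav1, the coat protein of caveolae, stands on none of these lists and had 274 and 325 CPM at day 0, then 74.4 and 19.1 CPM at day 3 (log2 fold change −2.66, SE 0.48, adjusted p = 0.0096). Actn1, Pxn and Cav1 lost their calls without day 0 replicate 2 (adjusted p = 0.0516 to 0.0857). Myh9, Amotl2 and Ctgf lost their calls whichever day 0 library was left out (adjusted p = 0.0588 to 0.0806 without replicate 1, 0.0675 to 0.125 without replicate 2).

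Tendon and fibroblast genes fell in 5 of 11 cases and rose in 0 (median −0.43, with 4 and 3 falls without day 0 replicate 1 or 2). Ly6a, a surface antigen of stromal progenitors, had 16.2 and 11.9 CPM at day 0, then 0.455 and 1.04 CPM at day 3 (log2 fold change −4.40, SE 0.37, adjusted p = 0.000249). Thy1, another surface antigen, had 43.1 and 49.9 CPM at day 0, then 14.2 and 20.3 CPM at day 3 (log2 fold change −1.44, SE 0.20, adjusted p = 0.00297), and the platelet-derived growth factor receptors Pdgfra and Pdgfrb fell, with Pdgfra at 188 and 207 CPM at day 0, then 90.3 and 35.1 CPM at day 3 and Pdgfrb at 227 and 260.4 CPM at day 0, then 133 and 135 CPM at day 3. Of 8 adipocyte genes 3 fell and 0 rose (median −0.64; 2 and 0 falls without day 0 replicate 1 or 2), Adipoq had 0 counts in all 4 libraries, and of 10 chondrocyte genes 1 fell and 1 rose (median 0.45). Pdgfrb lost its call without day 0 replicate 2 (adjusted p = 0.0857). Pdgfra lost it whichever day 0 library was left out (adjusted p = 0.0767 without replicate 1, 0.113 without replicate 2).

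Inflammatory and signalling genes were among those that fell. Of 17 chemokine, cytokine and complement genes 5 fell and 1 rose (median −0.41; 2 and 0, and 1 and 0, without day 0 replicate 1 or 2). Cxcl12, a chemokine of the stroma, had 464 and 456 CPM at day 0, then 182 and 115 CPM at day 3 (log2 fold change −1.63, SE 0.21, adjusted p = 0.00227). Vcam1, an adhesion receptor, had 410.5 and 359 CPM at day 0, then 167 and 72.8 CPM at day 3 (log2 fold change −1.68, SE 0.33, adjusted p = 0.0126). Il1rn, the natural antagonist of interleukin 1, had 30.9 and 29.7 CPM at day 0, then 2.6 and 1.94 CPM at day 3 (log2 fold change −3.70, SE 0.34, adjusted p = 0.000455), and 0.897 and 1.63 CPM at day 5. Aldh1a3, which makes retinoic acid, had 475 and 435 counts at day 0 (29.9 and 30.2 CPM) and 25 and 3 at day 3 (1.62 and 0.448 CPM). Tnfsf10, a death ligand, had 242 and 195 counts (15.2 and 13.5 CPM) and then 48 and 2 (3.12 and 0.298 CPM). Tgm2, a cross-linking transglutaminase, had 66.6 and 76.3 CPM at day 0, then 11.1 and 12.8 CPM at day 3 (log2 fold change −2.58, SE 0.18, adjusted p = 0.000105), Entpd3, an ectonucleotidase, had 71.5 and 85.3 CPM at day 0, then 12.9 and 10.6 CPM at day 3 (log2 fold change −2.73, SE 0.25, adjusted p = 0.000408). Aoc3, an amine oxidase, had 20.8 and 21.7 CPM at day 0, then 2.21 and 1.49 CPM at day 3 (log2 fold change −3.46, SE 0.31, adjusted p = 0.000356). For Tgm2, Entpd3 and Aoc3 the day 3 pair lay close together and far below day 0. Akap12, a scaffold of protein kinase A, had 140.3 and 145 CPM at day 0, then 31.7 and 7.91 CPM at day 3. Ptger1, a prostaglandin receptor, had 20.3 and 21.7 CPM at day 0, then 1.82 and 4.92 CPM at day 3. Vcam1 and Tnfsf10 lost their calls whichever day 0 library was left out (adjusted p = 0.0815 and 0.0654 without replicate 1, 0.0707 and 0.0671 without replicate 2).

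Few genes of the remaining lists passed. Of 27 NRF2 and antioxidant genes 3 fell and 0 rose (median 0.06; 1 and 0 whichever day 0 library was left out), among them Nqo1, a quinone reductase, with 29.9 and 29.7 CPM at day 0, then 8.77 and 12.5 CPM at day 3 (log2 fold change −1.50, SE 0.19, adjusted p = 0.00217). With exon length in the fit 8 of these 27 fell and 0 rose. Of 34 genes of the unfolded protein response and amino acid stress 2 rose and 2 fell (median −0.03), with Phgdh, the first enzyme of serine synthesis, at 75.9 and 90.8 CPM at day 0, then 156 and 282 CPM at day 3 (log2 fold change 1.39, SE 0.26, adjusted p = 0.0112) and the amino acid transporter subunit Slc3a2 at 202 and 232 CPM at day 0, then 94.4 and 104 CPM at day 3 (log2 fold change −1.12, SE 0.19, adjusted p = 0.00701). Of 30 genes of glycolysis and hypoxia 2 rose and 1 fell (median 0.03), and of 7 Notch genes 1 rose and 2 fell (median −0.72). Hes1, the Notch target, had 3.72 and 3.33 CPM at day 0, then 9.29 and 16.4 CPM at day 3 (log2 fold change 1.84, SE 0.42, adjusted p = 0.0225). The 80 ribosomal protein genes had 0 rises and 0 falls, with a median of 0.87 with both libraries, −0.14 with replicate 1 and 1.44 with replicate 2, and the 75 nuclear genes of oxidative phosphorylation had 2 and 0, with medians of 0.84, −0.04 and 1.36 (2 and 2 with exon length in the fit). Of 13 genes of the mitochondrial genome 3 rose, and none of the 13 passed with exon length in the fit. Of 12 histone genes, whose main transcripts lack the poly(A) tail used for capture, 0 rose or fell. Without day 0 replicate 1 or 2 the counts were 0 rises and 1 fall, or 0 and 0, for the unfolded protein response, 1 and 1 in both cases for glycolysis, and 0 and 0 for Notch and for both mitochondrial lists. Slc3a2 lost its call without day 0 replicate 2 (adjusted p = 0.0745). Phgdh and Hes1 lost their calls whichever day 0 library was left out (adjusted p = 0.0941 and 0.115 without replicate 1, 0.0804 and 0.173 without replicate 2).

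Macf1, the gene targeted in the other condition (chromosome 4, GRCm38 positions 123349633 to 123684360), had 154 and 159.6 CPM at day 0, then 191 and 56.1 CPM at day 3 in control (log2 fold change −0.34, SE 0.41, adjusted p = 0.601), with 0.27 with replicate 1 and −1.48 with replicate 2. Where knockdown is on the label, Macf1 stood at 155 and 162 CPM on day 0 and 172 and 169 CPM on day 3, not below control at day 0, so that those libraries are named by their label here. They went through the same days, and the control changes were compared with theirs over the same 11974 genes. Of the 630 genes that rose in control, 575 (91.3%) were also higher at day 3 in the libraries labelled knockdown, with a median log2 change of 0.42, and of the 686 that fell 585 (85.3%) were also lower, with a median of −0.37. Over all genes tested 50.2% were higher there. By edgeR's adjusted p 115 genes (0.96%) changed from day 0 to day 3 in those libraries, of which 47 of the control rises and 25 of the falls changed the same way and 1 of each the opposite way. Without control day 3 replicate 2, which is in neither of those groups but enters the shared estimate of the spread, 1924 genes (16.1%) changed, 247 of the rises and 300 of the falls the same way and 5 and 20 the opposite way. Leaving out 1 of the 4 libraries labelled knockdown left 12 to 20 calls: 12 and 14 without day 0 replicate 1 or 2, and 19 and 20 without day 3 replicate 1 or 2.

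Several mineralising genes that rose in control were also called higher at day 3 in the libraries labelled knockdown. The calls in those libraries come from the fit with all 14 libraries. Whether each holds with 1 library left out is not given here. In the libraries labelled knockdown Ibsp had 1.45 and 2.69 CPM at day 0 and 92.4 and 73.2 CPM at day 3 (log2 fold change 5.34, adjusted p = 0.000132). Alpl rose there from 0.214 and 0.207 to 20.2 and 17.5 CPM (log2 fold change 6.43, adjusted p = 2.48e-06), Pth1r from 0.857 and 1.45 to 17.4 and 19.1 CPM (log2 fold change 4.00, adjusted p = 0.0056), and Sp7 from 31.1 and 35.1 to 76.8 and 96.9 CPM (log2 fold change 1.39, adjusted p = 0.022). At day 0 the levels of Ibsp, Alpl and Pth1r were lower there than in control, a difference that was not tested. Nqo1 fell there as well, from 168 and 176 to 57.7 and 62.2 CPM (log2 fold change −1.52, adjusted p = 0.0056). The change itself was tested between the conditions by an interaction term, which called 37 genes (0.309%), 14 of the control rises and 18 of the control falls. Unlike the rises and falls, a gene called by this test was not required to pass with each control day 3 library. The call count was 600 without control day 3 replicate 2 (97 of the rises and 198 of the falls) and 5960 without replicate 1. It was 8 and 1 without control day 0 replicate 1 or 2, 1 and 9 without knockdown day 0 replicate 1 or 2, and 1 and 10 without knockdown day 3 replicate 1 or 2. For Phospho1 the change was larger in control (difference 4.30, SE 0.50, adjusted p = 0.00986), the libraries labelled knockdown having 1.87 and 2.21 CPM at day 0 and 13.1 and 11.8 CPM at day 3. Sfrp2 fell in control, and the other condition had 118 and 136 CPM at day 0 and 161 and 168 CPM at day 3 (difference −2.56, SE 0.25, adjusted p = 0.00644), where its day 0 level was already below that of control at day 3. For Runx2 (difference 0.15, SE 0.25, adjusted p = 0.796), Ibsp (1.16, SE 0.43, adjusted p = 0.377) and Hmmr (0.76, SE 0.26, adjusted p = 0.35) no difference between the conditions passed.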

How the data were processed

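RNA-seq of MC3T3-E1 cells was analysed from 2 tables that the authors deposited, one of raw read counts per gene and one of RPKM (reads scaled to exon length and library size). Per the submitters' processing notes, TopHat2, edgeR and the build GRCm38 were used; the counting tool, its strand setting and the annotation were not given in these sources, so that reads of overlapping or antisense genes cannot be told apart. Gene positions and exon lengths come from GENCODE M21 (24181 genes matched, 165 not). The exon length offsets used instead a relative length from deposited counts over RPKM, available for 12165 of the 24346 genes. The other genes had no offset. Counts ranged from 8044687 to 16228425 per control library of days 0 and 3. Intervals and floors cover counting error only.

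Genes were tested with edgeR 4.0.16 (R 4.3.3): trimmed mean of M values, a robust quasi-likelihood fit of 8 group means over 14 libraries with 6 residual degrees of freedom, and Benjamini-Hochberg adjustment over 11974 genes, with a threshold of 0.05. Standard errors are the absolute log2 fold change over the square root of F. In a fit with 1 day 3 library, that library was assumed to vary like the other groups. The filter left out 12372 genes, of which 4575 had no count in the 4 libraries; the second highest count was 10 in 111 genes just inside it, of which 5 passed, and 9 in 115 just outside. The alternatives were relative log expression scaling, scaling without ribosomal protein genes, no or a stricter filter, the 4 libraries alone, DESeq2 1.42.0, limma 3.58.1 on log2(RPKM + 1), exon length offsets, a replicate block and libraries left out; 2 were added after seeing the data, the comparison within the libraries labelled knockdown without control day 3 replicate 2 and the list counts with day 3 replicate 1 alone. The statistics were tested on simulated data in which all libraries had the same spread for each gene, with no length effect and no deviant library. Such data cannot show how the rule acts on a library like day 3 replicate 2. The genes named were 16 of bone and growth, the 15 largest rises and falls among officially named genes averaging 5 CPM or more, and up to 4 per list with at least 3 calls; Panx3, Ebp, Kif11 and further list members were chosen after their values were seen. The genes and lists were chosen with earlier results of these data known. A few list members are counted but not reported here.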

Additional observations from a re-analysis of the deposited data

Results flagged for a closer look

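In 14 of the named genes the change from day 0 to day 3 differed between control and the libraries labelled knockdown by the interaction test (adjusted p under 0.05 over all genes). These calls come from the fit with both control day 3 libraries. Unlike the rises and falls, they were not required to hold with each of them. The values are the log2 change in control minus that in the other condition. The change was more positive in control for Egr1 (2.03, SE 0.25, adjusted p = 0.00986), H19 (7.16, SE 0.55, adjusted p = 0.0024), Phospho1 (4.30, SE 0.50, adjusted p = 0.00986), Bbc3 (2.07, SE 0.31, adjusted p = 0.0298) and Itga10 (2.37, SE 0.32, adjusted p = 0.0172). It was more negative in control for Aldh1a3 (−4.30, SE 0.48, adjusted p = 0.00724), Aoc3 (−3.86, SE 0.41, adjusted p = 0.00644), Entpd3 (−3.20, SE 0.33, adjusted p = 0.00644), Ly6a (−2.88, SE 0.46, adjusted p = 0.0405), Sfrp2 (−2.56, SE 0.25, adjusted p = 0.00644), Tgm2 (−2.08, SE 0.24, adjusted p = 0.00724), Rspo2 (−2.07, SE 0.34, adjusted p = 0.0442) and Sod3 (−1.75, SE 0.27, adjusted p = 0.0324). For Tnfrsf19 the log2 change was smaller in control (−1.95, SE 0.28, adjusted p = 0.0221), where the level went from 19.1 and 20.3 to 317 and 273 CPM. In the other condition it went from 0.482 and 0.552 CPM, a low base, to 31.6 and 28.5 CPM. In the condition labelled knockdown, H19 had 6.43 and 6.69 CPM at day 0 and 2.89 and 1.69 CPM at day 3, against 12 and 3 counts at day 0 in control. The same test called 37 genes with all libraries, 600 without control day 3 replicate 2, 5960 without control day 3 replicate 1 and 1 to 10 without any 1 of the other 6 libraries of days 0 and 3.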

How the results depend on the processing

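The count of genes that passed with each day 3 library (1316) was 1265 to 1739 under the scaling, filter, exon length, replicate block and DESeq2 settings, and 0 when only the 4 control libraries were fitted. That fit has fewer residual degrees of freedom. The common dispersion was 0.0465 with all libraries and 0.0113 without control day 3 replicate 2, and also 0.0113 without control day 3 replicate 1. With both day 3 libraries together (1447 genes) the count was 0 with the 4 libraries, 2617 by DESeq2, 2041 with exon length offsets and 202 to 7139 with 1 library left out, the low end without day 0 replicate 2 and the high end without day 3 replicate 1. Genes that passed with each library numbered 202 to 315 with 1 day 0 library left out. The members of the gene lists that passed (208) numbered 0 with the 4 libraries and 61 to 383 with 1 library left out. By limma on log2(RPKM + 1), 408 genes rose and 867 fell, against 630 and 686, and 1041 of the 1316 were shared. By edgeR, the change in the libraries labelled knockdown (115 genes) was called for 12 to 1924 genes, and its difference from control (37 genes) for 1 to 5960, with 1 library left out. The log2 change of Col1a1 was −0.02 by limma on RPKM against 0.18, and that of Col1a2 was 0.01 with exon length offsets against −0.22; neither was called. A replicate block gave 1799, 1739, 251, 171 and 31 for these 5 counts, and 1274 of the 1316 genes passed. Same-numbered control libraries deviated together at a correlation of 0.114, from 2 groups of 2 that share only a number. Of 126 named genes that rose or fell, 49 kept their call in every setting but the 4-library fit, and 111 lost it at most there or when a day 0 library was left out. Causes were not tested.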
